A study of Bos taurus with 16 samples.

Results

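Genes of the calcitonin gene-related peptide (CGRP) system were examined in CD14+ cells sorted from endometrium and from blood of 4 pregnant cows. As defined here, the system comprised the peptide genes LOC407218, CALCA and ADM, the receptor gene CALCRL and the accessory protein genes RAMP1, RAMP2 and RAMP3. Members were taken by gene name, or by the symbol in brackets in the probe description, and 5 of the 7 genes were found, each with 1 probe of 2 spots, among 21475 probes of which 14924 had a gene name and stood for 14001 genes. CALCA was not found by name, but the probe of LOC614663 belongs to CALCA by its gene identifier in RefSeq (assembly ARS-UCD2.0) and is described beside the members. RAMP1 was not found under its name or identifier and is not analysed here.

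The cows were at days 164 (animal 1), 239 (animal 2), 242 (animal 3) and 248 (animal 4) of pregnancy and received no treatment. Their tissues were collected at an abattoir, CD14+ cells were sorted by flow cytometry from dispersed endometrium and from blood mononuclear cells, and the RNA was amplified before labeling. On each array, 1 dye carried an animal's endometrial cells and the other its blood cells, so that 8 arrays held 16 samples, with 2 technical replicates of each animal and tissue on 2 slides. The dyes were swapped between these replicates in 3 of the 4 animals, but not in animal 3.

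CGRP and adrenomedullin are small vasodilator peptides of 1 family. Both act through the calcitonin receptor-like receptor, a G protein-coupled receptor encoded by CALCRL, which needs a receptor activity-modifying protein (RAMP) to reach the cell surface and to choose its ligand. With RAMP1 it binds CGRP, and with RAMP2 or RAMP3 it binds adrenomedullin. The receptor signals mainly through the stimulatory G protein, adenylyl cyclase and cAMP. In macrophages and monocytes these peptides are known to temper the release of inflammatory cytokines, and adrenomedullin is known for vascular roles in the pregnant uterus.

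The identity of the main peptide probe needs care, because ruminants carry several calcitonin-type genes. The scanner files describe LOC407218 (NM_001001149) as calcitonin receptor-stimulating peptide-1, and RefSeq lists both CALCB and CRSP1 as its other symbols. LOC614663 (CALCA, XM_866235) is described there as similar to a beta-type CGRP precursor, and its neighbor LOC514876 (XM_592790) as similar to a calcitonin precursor. In RefSeq all 3 genes lie on chromosome 15, in the order LOC514876, CALCA, LOC407218, with 1 gene between CALCA and LOC407218 and with ADM farther along after 52 other genes. RefSeq also lists CALCA, CALCB and CT as other symbols of LOC514876, and CALC3 as that of CALCA. The names CALCA and CALCB thus do not tell these genes apart. Which receptor the product of LOC407218 acts on was not tested, so it is not taken here as a ligand of CALCRL. The array names no build that matches this assembly, so no coordinates are given. The probes of the 3 calcitonin-type genes are shown 5′ to 3′ because the account turns on telling them apart. Capitals mark the longest run of bases that a probe shares with either of the others.
LOC407218: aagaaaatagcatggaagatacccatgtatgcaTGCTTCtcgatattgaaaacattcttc
LOC614663 (CALCA): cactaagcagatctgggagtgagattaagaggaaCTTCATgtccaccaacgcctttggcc
LOC514876: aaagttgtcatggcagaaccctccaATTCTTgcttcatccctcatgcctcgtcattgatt
Each probe is 60 bases long, and the longest shared run was 6 bases. The place of each probe in its transcript was not analysed here, and neither was its match to other transcripts.

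Levels below are log2 normalized intensities, comparable between samples for 1 probe but not between probes, and ratios are log2 differences of endometrium minus blood within an animal. Probes well above background in no channel had a median level of 5.99. The members had been chosen with their endometrium over blood ratios known, so these ratios are a description and no p is given for them. In the cell populations as sorted, fewer cells of a type and less RNA per cell cannot be told apart.

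Before the members, the label of the cells was compared with its markers, and animal 1 stood apart. CD14 had levels of 12.17 in endometrium and 14.24 in blood of animal 1, against 6.30 to 8.14 in the other 6 samples. CD68, a lysosomal protein of macrophages, had 12.93 and 10.97 in animal 1 and 6.83 to 9.94 in the others. The mean level of the 9 monocyte and macrophage genes tested was 12.81 in endometrium and 12.93 in blood of animal 1, and 8.47 to 10.46 in the other 6 samples. The 10 genes of T and natural killer cells ran the other way, with 8.09 and 7.00 in animal 1 and 9.53 to 11.75 in the others. CD14 was well above background in all 16 channels. In blood, all 9 tested monocyte and macrophage genes had their highest level in animal 1. In endometrium, not all of them were low outside animal 1. AIF1 had 14.33 in endometrium of animal 1 and 12.75, 14.37 and 14.32 in that of animals 2, 3 and 4, and TYROBP and CD163 had 13.43 and 11.45 in endometrium of animal 3. By flow cytometry, per the labels, the great majority of sorted cells in both tissues carried CD14, with a higher purity in blood. Animal 1 differs from the others in its day of pregnancy as well, which cannot be told apart from the animal itself.

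**Figure D1:**
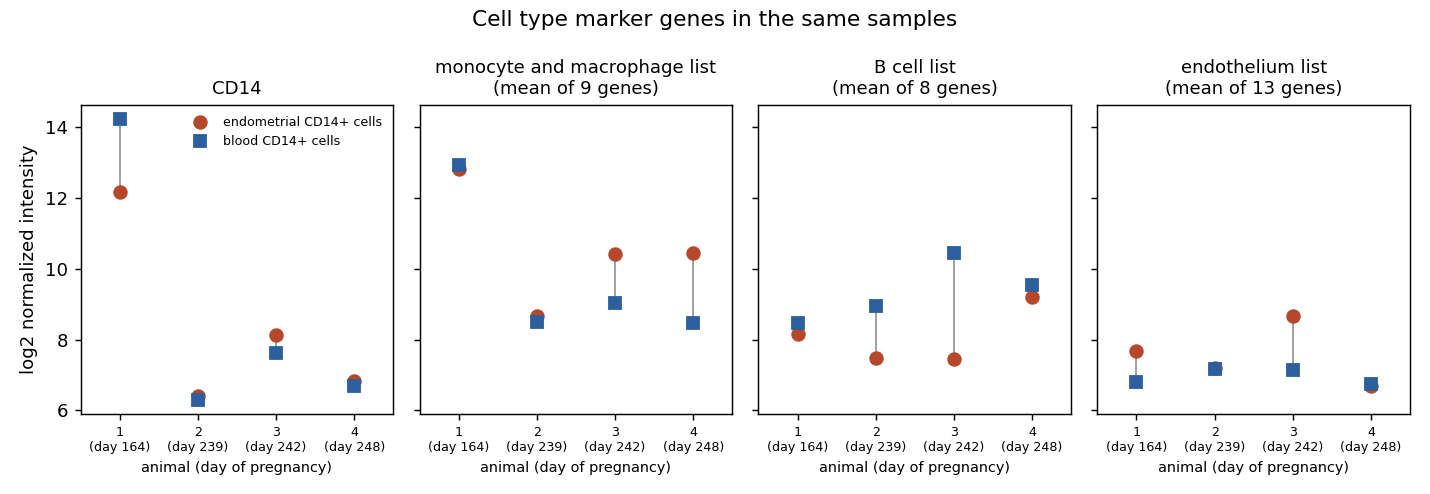
Log2 normalized intensity of CD14 and mean log2 normalized intensity of 3 marker lists (y axis) in each animal (x axis, with its day of pregnancy), with circles for endometrial and squares for blood CD14+ cells, 1 value for each animal and tissue averaged over 2 arrays. CD14 was at 12.17 and 14.24 in animal 1 and between 6.30 and 8.14 in the other 6 samples, and the B cell list was lower in endometrium than in blood in each animal.

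LOC407218 was the member with the largest difference between the tissues, with more in blood than in endometrium in 4 of 4 animals. In blood its levels were 8.14, 10.06, 12.20 and 11.43 in animals 1 to 4. In endometrium they were 5.91, 6.50, 7.92 and 9.73. Within each animal blood was above endometrium, but the groups overlapped across animals, since the endometrium of animal 4 exceeded the blood of animal 1. Animal 1 had the lowest level in both tissues. The 2 arrays of a sample differed by at most 0.30, so that neighbors in the order of animals within a tissue differed by more than their technical spread, with 1 sample behind each value.

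The within-animal log2 ratios of LOC407218 were -2.23, -3.56, -4.28 and -1.70, with a mean of -2.94 ± 1.19 (SD, n = 4 animals), or 7.70-fold more in blood. This was the 4th lowest mean ratio of the 16653 probes tested. On slide 1 alone the mean was -2.99 and on slide 2 alone -2.90. Without animal 1 it was -3.18, and leaving out each animal in turn gave -3.36 to -2.50. The probe stood well above background in 8 of 8 channels of blood and 6 of 8 of endometrium, and the 2 missing channels were those of animal 1. In animal 1 the ratio thus rests on an endometrial value at background, where the offset added in the background correction narrows the difference. In the authors' value table, made without such an offset, the ratios were -6.61, -5.16, -4.71 and -1.81, and animal 1 changed from the third largest difference to the largest.

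The mean of the B cell markers was also higher in blood in 4 of 4 animals. Its order was that of LOC407218 over the blood samples but not over the endometrial samples. The mean level of the 8 B cell genes was 8.47, 8.94, 10.44 and 9.53 in blood of animals 1 to 4 and 8.15, 7.49, 7.46 and 9.21 in endometrium. Its differences were -0.32, -1.46, -2.98 and -0.32. Animal 1, with 1 of the smaller differences, cannot be ranked for LOC407218, whose endometrial value there was at background. Of the list, 4 of 8 genes favored blood with p of 0.05 or less before adjustment and over 2-fold (the unadjusted threshold), among them CD22 with a log2 ratio of -2.14 and MS4A1 with -1.83, and 0 passed after adjustment. Of all probes tested, 5.11% favored blood at the unadjusted threshold. Higher in blood in all 4 animals were 3 of the 8 genes, and CR2, a complement receptor, had a log2 ratio of 1.21 that came from animal 1 (5.13). MS4A1 was detected above background in 8 of 8 channels of blood and 4 of 8 of endometrium. The part of these cells in the level of LOC407218 was not tested.

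The other 2 calcitonin-type probes, at or near background, gave no such difference. The probe of LOC614663 (CALCA) was well above background in 0 of 16 channels, with levels from 6.001 to 6.133. In other mammals the symbol CALCA stands for the gene of calcitonin and alpha-CGRP. No fold is given for this probe. LOC514876 was well above background in 5 endometrial and 4 blood channels of 8 each, with levels from 6.09 to 6.63. Its log2 ratios were -0.19, -0.0043, 0.26 and -0.083, which changed sign between animals. In the authors' value table they were -1.23, -0.25, 1.80 and -0.17, also of both signs. The offset narrows differences at such low levels. LOC514876 is no member and was added after its values were seen.

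ADM, which encodes the vasodilator adrenomedullin, was higher in endometrium in 3 of 4 animals. Its endometrial levels were 12.93, 11.43, 13.59 and 11.03 in animals 1 to 4. Its blood levels were 13.24, 9.08, 9.33 and 8.53. The blood of animal 1 stood 3.91 above the next highest blood sample and exceeded the endometrium of animals 1, 2 and 4, so that the groups overlapped through this sample alone. Among the 16653 probes tested, 1.18% had a blood level in animal 1 as far or farther above the mean of the other 3.

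The log2 ratios of ADM were -0.31, 2.35, 4.26 and 2.50, with a mean of 2.20 ± 1.89 (SD, n = 4 animals), or 4.59-fold more in endometrium. The mean was 3.04 without animal 1 and 1.51 without animal 3. On slide 1 it was 2.15 and on slide 2 2.25, and the 2 arrays of an animal differed by at most 0.24 in this ratio. The probe was well above background in all 16 channels, and the authors' value table gave -0.31, 2.53, 4.38 and 2.73, close to the same values.

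RAMP2, the accessory protein that turns the calcitonin receptor-like receptor into an adrenomedullin receptor, had its highest level in animal 1 in both tissues. In blood its levels were 13.54, 7.92, 8.47 and 7.49. In endometrium they were 12.37, 7.99, 10.88 and 8.50. The blood of animal 1 lay 5.08 above the next blood sample, and 0.426% of the probes tested were as far above the other 3 animals in that sample. Its endometrium lay 1.49 above the next endometrial sample.

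The log2 ratios of RAMP2 were -1.17, 0.07, 2.41 and 1.01, a mean of 0.58 ± 1.51 (SD, n = 4 animals). The spread over the animals exceeded the mean. The mean became -0.03 without animal 3 and 1.16 without animal 1. It was 0.68 on slide 1 and 0.47 on slide 2.

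CALCRL, the receptor itself, was near background in most samples, and its 3 brightest samples were those of RAMP2, in the same order. Its blood levels were 9.94, 6.05, 6.17 and 5.996 in animals 1 to 4. Its endometrial levels were 8.62, 6.18, 8.23 and 5.97. It was well above background on both arrays in the blood of animal 1 and in the endometrium of animals 1 and 3, on 1 of 2 arrays in the endometrium of animal 2, and on neither array elsewhere. Blood from animals 2, 3 and 4 thus gave no signal above background, whereas blood from animal 1 gave the highest level of all 8 samples.

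The log2 ratios of CALCRL were -1.32, 0.12, 2.06 and -0.02, with a mean of 0.21 ± 1.39 (SD, n = 4 animals). Both tissues were above background on both arrays in animal 1 alone, so the mean rests largely on values at background. Blood was at background in animals 2, 3 and 4 and both tissues were so in animal 4. The mean became -0.41 without animal 3 and 0.72 without animal 1. It was 0.16 on slide 1 and 0.26 on slide 2. In the authors' value table the ratios were -1.51, 1.93, 6.89 and 0.18, with a mean of 1.87, but the blood value beneath the ratio of animal 3 was not well above background on either array.

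RAMP3, which also forms an adrenomedullin receptor, was well above background in 0 of 16 channels, with levels from 5.999 to 6.359, and no fold is given. It did not pass the filter on dim probes, which 4 of the 5 member probes passed.

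**Figure D2:**
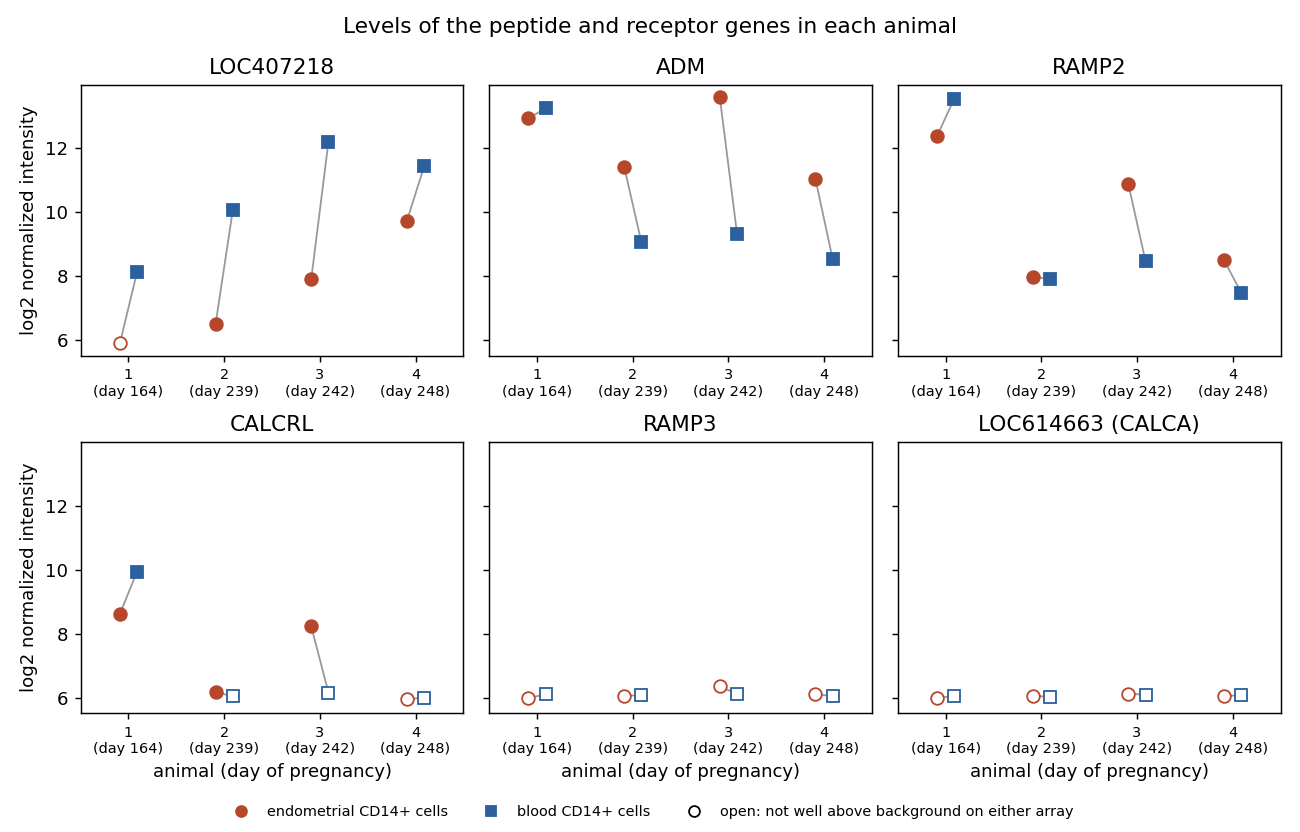
Log2 normalized intensity (y axis) of 5 members and of LOC614663 (CALCA) in each animal (x axis, with its day of pregnancy). Circles are endometrial and squares blood CD14+ cells, averaged over 2 arrays, a line joins the tissues of an animal, and open symbols mark samples not well above background on either array. LOC407218 was higher in blood in each animal, whereas ADM, RAMP2 and CALCRL had their highest blood level in animal 1.

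ADM, RAMP2 and CALCRL, the ligand and receptor of 1 pathway, had a like pattern over the animals that their mean ratios hide. All 3 had their highest blood level in animal 1, all 3 had their lowest ratio in animal 1, with blood above endometrium, and all 3 had their largest ratio in animal 3. The pattern was not particular to them. It was found in 6.03% of the 16653 probes tested and in 8 of the 82 tested pathway genes described below. EDN1, which encodes the vasoconstrictor endothelin-1, had 15.26 in blood of animal 1 against 7.63 to 8.65 in that of the others. Its log2 ratio was -3.95 in animal 1 and 2.91 in animal 3. THBS1 and AREG, listed as cAMP-responsive genes, had 14.77 and 13.21 in blood of animal 1. LOC407218 had its lowest blood level in animal 1. The monocyte list had its highest blood mean in animal 1 too, 12.93 against 8.47 to 9.02 in the other 3. The granulocyte list, 5 genes, had 8.70 there against 6.77 to 7.03. The part of either cell type in these levels was not tested.

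Endothelium is a known source of CALCRL, RAMP2 and ADM, and its markers were set beside the levels of these members. The mean level of the 13 endothelial genes was 6.81, 7.17, 7.15 and 6.75 in blood of animals 1 to 4, so that the mean of animal 1 was not the highest, although it was for 4 of the 13 genes, among them PECAM1 with 7.58 against 6.44 to 6.76. In endometrium it was 7.68, 7.19, 8.68 and 6.69, highest in animals 3 and 1, where CALCRL was above background on both arrays, and its differences between the tissues were 0.88, 0.01, 1.53 and -0.06. Of these 13 genes, 2 were higher in endometrium past the unadjusted threshold, MMRN2 with a log2 ratio of 1.77 and VWF with 1.72, and 0 passed the adjusted threshold. Of all probes tested, 5.28% were higher in endometrium past the unadjusted threshold. In blood, 8 of the 13 genes were well above background in all 8 channels, and CDH5 and ESAM in none. The part of endothelial cells in the levels of either tissue was not tested.

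**Figure D3:**
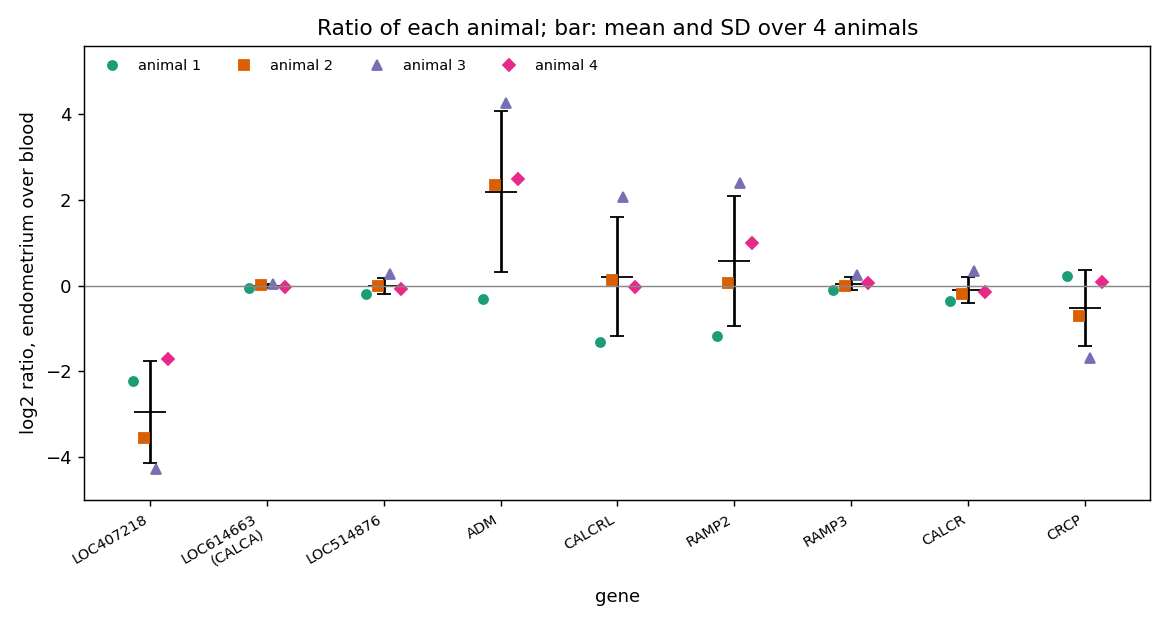
Log2 ratio of endometrium over blood (y axis) of members and related genes (x axis), with 1 symbol for each of 4 animals and a bar for their mean and SD. LOC407218 was below 0 in each animal, and ADM, RAMP2 and CALCRL were lowest in animal 1 and highest in animal 3.

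Over all genes, 11 of 16653 probes passed limma's test with an adjusted p of 0.05 or less and over 2-fold (the adjusted threshold), a share of 0.0661%, all higher in endometrium. Of the 4 member probes tested, 0 were among them and 2, LOC407218 and ADM, were among the 10.4% of probes past the unadjusted threshold. A ratio of 1 sign in all 4 animals, as for LOC407218, was found for 24.8% of the probes tested. Nothing is read from these counts, since the members were chosen on this contrast.

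A relative of the receptor and a protein that works with CGRP receptors, both outside the members, gave small mean differences. CALCR (LOC613317), the calcitonin receptor, was well above background in all 16 channels, with levels of 6.26, 6.49, 7.06 and 6.66 in endometrium and 6.61, 6.69, 6.72 and 6.81 in blood. Its log2 ratio was -0.09 (SE 0.23, limma, adjusted p = 0.882) and was above 0 in animal 3 alone. CRCP (LOC507533), an intracellular protein that couples CGRP receptors to signalling, had levels of 6.82, 7.55, 7.67 and 8.20 in endometrium and 6.58, 8.26, 9.36 and 8.12 in blood. Its log2 ratio was -0.52 (SE 0.38, limma, adjusted p = 0.546), and 2 of 4 animals were higher in each tissue. ADM2, ADM5 and IAPP, the other peptides of the family, were not matched to a probe.

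The pathway around the receptor was described with lists of 118 other genes, of which 99 had a probe and 82 passed the filter. The lists were chosen with earlier results of these data known, so their counts and p are a description. None of the 82 passed limma's adjusted threshold, while 10 were higher in endometrium and 4 higher in blood at the unadjusted threshold, against 5.28% and 5.11% of all probes tested. By the methods' analysis of variance these counts were 0, 5 and 2. With the probes of a gene averaged, in place of its brightest probe, they were 0, 9 and 3. The median log2 ratio of the 82 genes was 0.09, beside -0.02 for all probes tested. Without animal 1 the unadjusted counts were 7 and 3, and without animal 3 they were 6 and 2.

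Peptide-degrading enzymes included the largest of these differences. MME (LOC536741), or neprilysin, a cell surface peptidase known to cleave adrenomedullin and CGRP, had levels of 12.49, 8.38, 14.37 and 12.26 in endometrium. In blood its levels were 7.90, 6.24, 8.98 and 6.80. Endometrium was above blood in 4 of 4 animals, and the groups overlapped only between the endometrium of animal 2 and the blood of animal 3. The log2 ratio was 4.40 (SE 0.61, limma, adjusted p = 0.165). Over 16 alternatives that kept the reading of the files it ran from 4.04 to 5.51 with adjusted p from 0.00121 to 0.556. It passed the threshold in 5 of them. The lowest adjusted p came from a fit of the 8 arrays, which takes technical replicates as observations.

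DPP4, a dipeptidyl peptidase that trims many peptide hormones, had log2 ratios of 0.79, 2.24, 3.00 and 1.08, a mean of 1.78 (SE 0.43, limma, adjusted p = 0.262). Endometrium exceeded blood in 4 of 4 animals. The other 4 tested enzymes of this list passed neither threshold. In the stroma and epithelium lists, whose tissues also make MME, 2 of 9 and 7 of 10 genes were higher in endometrium at the unadjusted threshold and 0 passed the adjusted one. The share of all probes tested was 5.28% at the unadjusted threshold. The mean of the stroma genes was 12.83, 6.21, 7.58 and 7.60 in endometrium of animals 1 to 4 and 6.23 to 7.56 in blood. That of the epithelium genes was 9.56, 8.84, 12.33 and 8.88 in endometrium and 6.78 to 8.25 in blood. In endometrium MME and both lists were lowest in animal 2, and MME and the epithelium list were highest in animal 3, the stroma list in animal 1. Their part in the ratio of MME was not tested.

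Of the peptide processing list, which holds the prohormone convertases, the carboxypeptidases and the amidating enzyme that mature such peptides, 0 of 7 tested genes passed either threshold, with log2 ratios from -0.25 to 0.90.

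Downstream of the receptor, 0 of 18 tested genes of the G protein, adenylyl cyclase and protein kinase A list passed the adjusted threshold, 3 were higher in endometrium at the unadjusted one and 2 in blood. RAPGEF3 (LOC535383), a guanine nucleotide exchange factor opened directly by cAMP, had log2 ratios of 1.86, 3.32, 3.78 and -0.87, a mean of 2.02 (SE 0.80, limma, adjusted p = 0.328). PRKAR1B (LOC505370), a regulatory subunit of protein kinase A, had 2.12, 0.93, 2.63 and 0.58, a mean of 1.56 (SE 0.41, limma, adjusted p = 0.262). The latter was higher in endometrium in 4 of 4 animals, the former in 3. GNAS, the alpha subunit of the stimulatory G protein, was the last of the 3 with 1.01 for the brighter of its 2 probes. CREBBP with -1.17 and CRTC2 with -1.18, both coactivators of the cAMP response factor CREB, were the 2 in blood. In the list of receptor desensitization and cAMP phosphodiesterases, 0 of 9 tested genes passed either threshold, with log2 ratios from -0.53 to 0.33.

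Genes known to respond to cAMP went both ways. Of 14 tested, 0 passed the adjusted threshold, and 2 in each direction passed the unadjusted one. FOSB had log2 ratios of 1.58, 3.73, 4.33 and -0.23, a mean of 2.35 (SE 0.80, limma, adjusted p = 0.286). FOS, like FOSB an immediate early factor, had 2.91, 2.72, 2.19 and 0.23, a mean of 2.01 (SE 0.50, limma, adjusted p = 0.262). Both are known to respond to cell handling as well as to cAMP. CREM, a transcription factor of the cAMP response, with -1.79, and PER1, a clock gene with cAMP response elements, with -1.46, were higher in blood in 4 of 4 animals each. CREM had 3 probes, and its value is that of the brightest.

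Of 15 tested genes of other vasoactive peptides and their receptors, 0 passed the adjusted threshold and 2 were higher in endometrium at the unadjusted one. AGT, the precursor of angiotensin, had log2 ratios of 0.42, 0.85, 4.67 and 2.67, a mean of 2.15 (SE 0.75, limma, adjusted p = 0.289). NPPC, which encodes C-type natriuretic peptide, had 0.71, 2.10, 3.13 and 0.91, a mean of 1.71 (SE 0.46, limma, adjusted p = 0.262). For both, endometrium exceeded blood in 4 of 4 animals. Both were well above background in all 8 endometrial channels, but in blood AGT was so in 2 and NPPC in 3 of 8 channels. Without background correction, and so without the offset, AGT had 2.84 (limma, adjusted p = 0.243) and NPPC 2.51 (limma, adjusted p = 0.219). From 2 other sets of intensities, also without an offset, both ratios were larger and passed limma's adjusted threshold. AGT had 5.32 (adjusted p = 0.0288) with the scanner's processed signal and 5.05 (adjusted p = 0.0218) with the authors' values, and NPPC had 5.195 (adjusted p = 0.0143) and 5.01 (adjusted p = 0.00733). Over the same 16 alternatives the adjusted p ran up to 0.559 for AGT and 0.556 for NPPC. Of 11 tested hypoxia-responsive genes, listed because low oxygen induces ADM, 0 passed the adjusted threshold and ANKRD37 alone the unadjusted one, with a log2 ratio of 1.21 (SE 0.38, limma, adjusted p = 0.275). The other 10, which included glycolytic genes and VEGFA, had log2 ratios from -0.94 to 0.62.

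**Figure D4:**
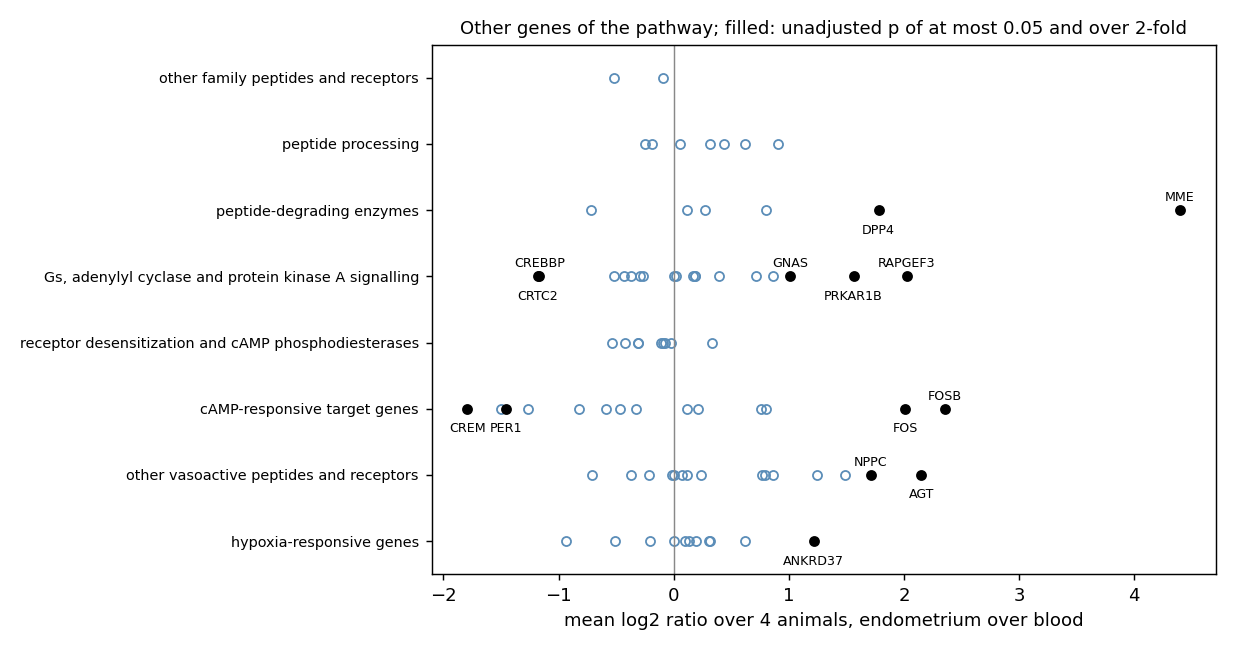
Mean log2 ratio of endometrium over blood over 4 animals (x axis) of the 82 tested genes of 8 pathway lists (y axis), 1 symbol for each gene. Filled symbols are the 14 genes past the unadjusted threshold, and none of the 82 passed the adjusted one.

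Genes whose levels were most like those of LOC407218 were sought among 11903 other tested probes with a gene name, by Pearson r over the 8 samples, as a description. The samples are 4 pairs from the same animals, so r has no p. The 5 nearest were ZNF598 (r = 0.989), RAB7A (r = 0.986), USP7 (r = 0.976), DHX38 (r = 0.976) and SEC23B (r = 0.974). All 5 were higher in blood in 4 of 4 animals, with mean log2 ratios from -1.26 to -0.84. This list depends on the measure. By Spearman's rho, 8 probes were tied at 1, and DHX38 was the 1 of the 5 among them, while with the authors' values none of the 5 was among the nearest 5. CREM, the cAMP-responsive factor above, was among the tied probes and among the 5 nearest with the authors' values, as was MS4A1, a B cell marker, in the latter.

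The mean ratios of the members were also followed over the processing. LOC407218 stayed between -4.57 and -2.50 and ADM between 1.51 and 3.04 in all settings but 1. The exception was to read each scanner file as the technical replicate it was attached to, which gave 0.80 for LOC407218 and -0.07 for ADM. By rank correlation, each column of the authors' value table was closer to the file given for the other array of the same animal (rho 0.988 to 0.997) than to the file given for its own (0.915 to 0.986), in the dye its label names. The files were read in this exchanged way throughout.

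**Figure D5:**
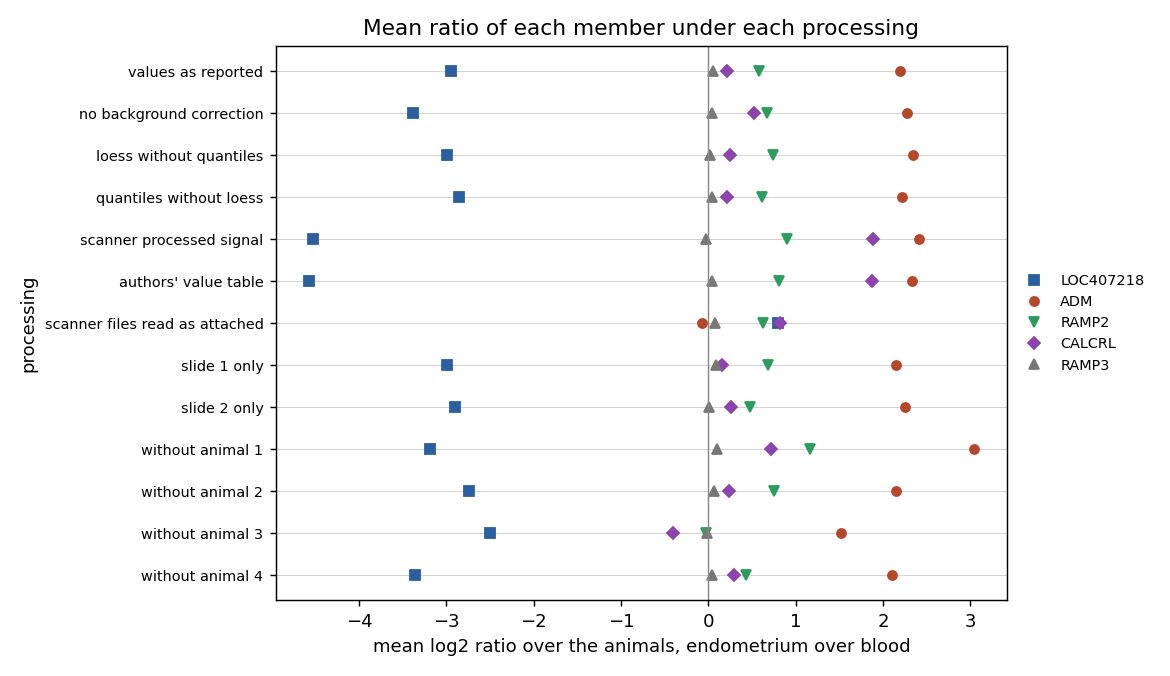
Mean log2 ratio of endometrium over blood (x axis) of the 5 members under each processing (y axis), over 4 animals or over 3 where an animal is left out. LOC407218 lay below 0 and ADM above 0 except when scanner files were read as attached, and CALCRL and RAMP2 crossed 0 without animal 3.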

How the data were processed

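RNA of sorted CD14+ cells from 2 tissues of 4 cows was hybridized to Agilent bovine arrays with 2 colours. The authors deposited scanner files with median signal and background intensity of each spot, written by Feature Extraction 10.5.1.1 per the file headers (9.5 per the labels), and a value list on the log2 scale whose columns have a median of 8.00. Its exact centring is not given in the sources used here.

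The members and lists were chosen with earlier results of these data known. The fit over all probes took in the members, but no p is given for them and nothing is read from it. Values came from the scanner files, and those of the deposited value list, by feature number, were an alternative. With limma 3.58.1 (R 4.3.3, statmod 1.5.0), intensities were background-corrected by normexp with an offset of 50, then normalized within arrays (loess) and between channels (quantiles), and averaged over spots and over the 2 arrays of an animal, for each tissue. Flagged spots (3 to 20 an array) were left out, and 0 were saturated. A probe was tested if 4 or more of a tissue's 8 channels were well above background, by lmFit and eBayes of the 4 within-animal ratios, with Benjamini-Hochberg adjustment. The number of animals, with 2 arrays each, limits the precision. Animal pairs the tissues by design. The deviations of both tissues from their means had r of 0.618 (animal 1), 0.364 (animal 2), 0.209 (animal 3) and 0.465 (animal 4) over probes. The fit was tested on simulated data. Probes were named by accession, gene identifier, gene name or the symbol in brackets, through RefSeq, which left 6551 of 21475 without a match. The brightest probe stood for a gene. Named are all members, the other family genes, up to 2 genes of each pathway list with the largest ratio past the unadjusted threshold, the 5 genes most like LOC407218 and a few markers of each list. LOC514876, GNAS, CREBBP, CRTC2, CREM, PER1, EDN1, THBS1, AREG, AIF1, TYROBP, CD163, CR2, PECAM1, CDH5 and ESAM were added after their values were seen. Counts at the unadjusted threshold follow for the other marker lists, beside 5.28% of all probes tested higher in endometrium and 5.11% higher in blood. Higher in endometrium were 4 of 10 T and natural killer cell genes, 4 of 9 monocyte genes and 1 of 5 granulocyte genes, and 0 of these lists were higher in blood. Of 6 smooth muscle genes and 4 platelet genes, 0 passed. Of 7 trophoblast genes, 4 were higher in endometrium and 1 in blood, with 3 past the adjusted threshold (PAG7, PRP1 and PRP6). Alternatives concerned intensities, background, normalization, which file goes with which replicate, filter, pairing, slide, animals, test and likeness.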

Additional observations from a re-analysis of the deposited data

Results flagged for a closer look

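In 3 of the 26 sets of 4 values checked, 1 animal lay farther from the rest, as a share of the whole range, than Dixon's limit for 4 values, which chance exceeds in about 1 of 20 such sets. All 3 were blood levels of animal 1, at day 164 of pregnancy. RAMP2 had a log2 normalized intensity of 13.54 there, with a gap of 0.839 of the range. CALCRL had 9.94, with a gap of 0.957. In blood of animals 2, 3 and 4 CALCRL was at background, where the spread is narrow. The rate of 1 in 20 therefore cannot be applied to this gap. ADM had 13.24, with a gap of 0.830, barely past the limit. These flags come from 1 sample and are not independent of each other. CD14, at 14.24 in the same sample, and the monocyte list, at 12.93, were high there as well, and their part in the levels of the 3 genes was not tested.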

How the results depend on the processing

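Directions of LOC407218 and ADM were kept in 12 of 13 alternatives each. With scanner files read as attached, LOC407218 turned to 0.80 and ADM to -0.071, and CALCR (0.26), MME (-1.70), DPP4 (-0.28), RAPGEF3 (-0.13), PRKAR1B (-0.25), FOSB (-0.19), FOS (-0.92), NPPC (-0.15) and ANKRD37 (-0.34) changed sign too. Scanner processed signal and the authors' value table, neither with an offset, moved LOC407218 to -4.53 and -4.57 and CALCRL to 1.88 and 1.87. Leaving out 1 animal gave -3.36 to -2.50 for LOC407218, 1.51 to 3.04 for ADM, -0.03 to 1.16 for RAMP2, -0.41 to 0.72 for CALCRL and -0.02 to 0.10 for RAMP3. The 3 dye-swapped animals alone are the fit without animal 3.

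The count of 11 probes called was 50 without background correction, 5 with loess without quantiles, 7 with quantiles without loess, 171 with processed signal, 224 with the authors' values, 0 with files as attached, 5 on slide 1, 20 on slide 2, 5 with no filter, 44 with the strict filter, 792 in the fit of the 8 arrays (dye as a term, animal as random block), and 0 in the methods' analysis of variance (387 higher in endometrium and 300 in blood unadjusted). Without the pairing of tissues in animals (no replicate block) it was 4. It was 0 without any 1 animal. The fit of the 8 arrays takes the 2 arrays of an animal as observations, with a correlation of 0.986 within animals. In the pathway lists the count of 0 became 1 without background correction, 3 with processed signal, 3 with the authors' values, 1 with the strict filter, 7 in the fit of 8 arrays and 14 at the unadjusted p. It stayed 0 without any 1 animal and with no replicate block. Of the 5 genes most like LOC407218, 1 was shared by Spearman's rho (8 probes tied at 1) and 0 by the authors' values. A single sample stands behind each animal and tissue, and levels below background have no order.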
